A study of Mus musculus with 9 samples.

Results

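The genes of the MHC class II molecules and of Ciita, the coactivator that switches them on, were followed in macrophages sorted from healing mouse skin. The 10 genes were chosen by symbol (H2-Aa, H2-Ab1, H2-Eb1, H2-DMa, H2-DMb1, H2-DMb2, H2-Oa, H2-Ob, Cd74 and Ciita) among 18303 gene symbols in the deposited count table. All mice were C57BL/6J wild-type and received no treatment beyond the skin injury. Wound cells positive for CD45, CD11b and F4/80 were sorted, and their total RNA was sequenced in 4 libraries from day 4 and 5 libraries from day 14 after injury. The comparison asks how early and late wound macrophages differ. Age, sex and pooling of animals are not given in the sources used here. The labels do not tie libraries to individual mice, so p-values measure the spread between these libraries, which may be technical.

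MHC class II molecules are pairs of an alpha and a beta chain that carry peptides from the endosome to the cell surface, where CD4 T cells read them. The invariant chain, encoded by Cd74, holds new pairs together and blocks their groove on the way to the endosome. There the DM pair exchanges the last fragment of the invariant chain for peptides, and the DO pair restrains DM. CIITA does not bind DNA itself. It docks on the factors RFX, CREB and NF-Y, which sit on a shared set of short elements, the X and Y boxes, in front of class II genes.

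The 9 libraries held from 17982630 to 57809914 counts. The counts of day 14 replicate 5 stop within Aplp2 on chromosome 9. The 1504 genes taken as lying beyond this break, those of X and Y among them, were measured in the 8 other libraries only. None of the 10 class II genes lies there. The macrophage genes Lyz2 (lysozyme), Csf1r (the CSF1 receptor) and Emr1 (F4/80) stood at 10718 ± 556, 2154 ± 194 and 1121 ± 59.1 CPM at day 4 and at 11444 ± 990, 2122 ± 113 and 1455 ± 120 CPM at day 14. CPM here are counts scaled to a common library size with TMM factors, given as mean ± SD (n = 4 and 5). Lyz2, Csf1r and Emr1 come from a list of 10 macrophage and sort markers. Of these 10, 2 were called higher and 4 lower at day 14, as described below, beside 16.1% and 14.9% of all genes tested. Collagen transcripts of fibroblasts were also present in every library, with Col3a1 at 6375 ± 1945 and 3253 ± 667 CPM.

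The promoter elements are shown first because they are the known docking sites of the factors that hold CIITA, and whether they bear on the changes was not tested. RefSeq promoters on GRCm38.p6, from 250 bases before to 50 after the annotated start, were found for 7 of the 10 genes, and H2-Ab1, Cd74 and Ciita had no entry. In 6 of the 7, a Y box core, ATTGG, followed an X box core on the same strand. The X box core was searched as GCAAC or as AACNNATGA, letters chosen after these promoters had been seen, and both strands were searched. The windows are printed 5′ to 3′ on the strand of the gene with these cores in capitals (the capitals of the 2 X box spellings merge where both match).
H2-Aa (chr17:34287857-34287914, minus strand): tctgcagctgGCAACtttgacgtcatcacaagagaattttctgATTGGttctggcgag
H2-Eb1 (chr17:34305766-34305822, plus strand): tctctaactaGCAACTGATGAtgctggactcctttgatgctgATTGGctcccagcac
H2-DMb1 (chr17:34153089-34153144, plus strand): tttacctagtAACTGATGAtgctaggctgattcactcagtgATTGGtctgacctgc
H2-DMb2 (chr17:34145118-34145173, plus strand): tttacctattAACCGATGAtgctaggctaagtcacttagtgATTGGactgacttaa
H2-Oa (chr17:34092293-34092350, plus strand): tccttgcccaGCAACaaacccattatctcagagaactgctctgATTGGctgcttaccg
H2-Ob (chr17:34238808-34238862, plus strand): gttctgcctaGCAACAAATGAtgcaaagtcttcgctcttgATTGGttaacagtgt

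The distance from the AAC of the X box core to the ATTGG was 31 bases in H2-Aa, H2-DMb1, H2-DMb2 and H2-Oa, 30 bases in H2-Eb1 and 28 bases in H2-Ob. The ATTGG began between 43 and 90 bases before the annotated start. For H2-DMb2, at 90 bases, that start lies inside the gene, which is annotated from 34143229 to 34151553. Among all 32851 promoters of this length, 1.91% held such a pair with at most 45 bases between AAC and ATTGG on either strand. ATTGG alone was in 37.4%, GCAAC in 35.2% and AACNNATGA in 2.85% of them. For H2-DMa, which has 2 annotated starts in the table, neither window held the pair. H2-Oa and H2-Ob, the chains of the DO pair, both carried it, and their transcript levels behaved differently, as described below.

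Of the 10 class II genes, 9 were higher at day 14 (edgeR's quasi-likelihood test, Benjamini-Hochberg adjusted p under 0.05), 0 were lower, and H2-Oa did not pass. Over all 13353 genes tested, 16.1% were called higher. The rise was at least 2-fold in 8 of the 10, against 4.89% of all genes tested. In the same 9 genes every day 14 library lay above every day 4 library, which was so for 13.0% of all genes tested. The median log2 fold change of the 10 genes was 1.09, against 0.01 over all genes tested. Together they took up 1.06% ± 0.113 of the counts at day 4 and 2.16% ± 0.235 at day 14 (counts of genes before the break, SD, n = 4 and 5). In bulk RNA, more cells that carry a transcript and more of it per cell cannot be told apart.

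**Figure D1:**
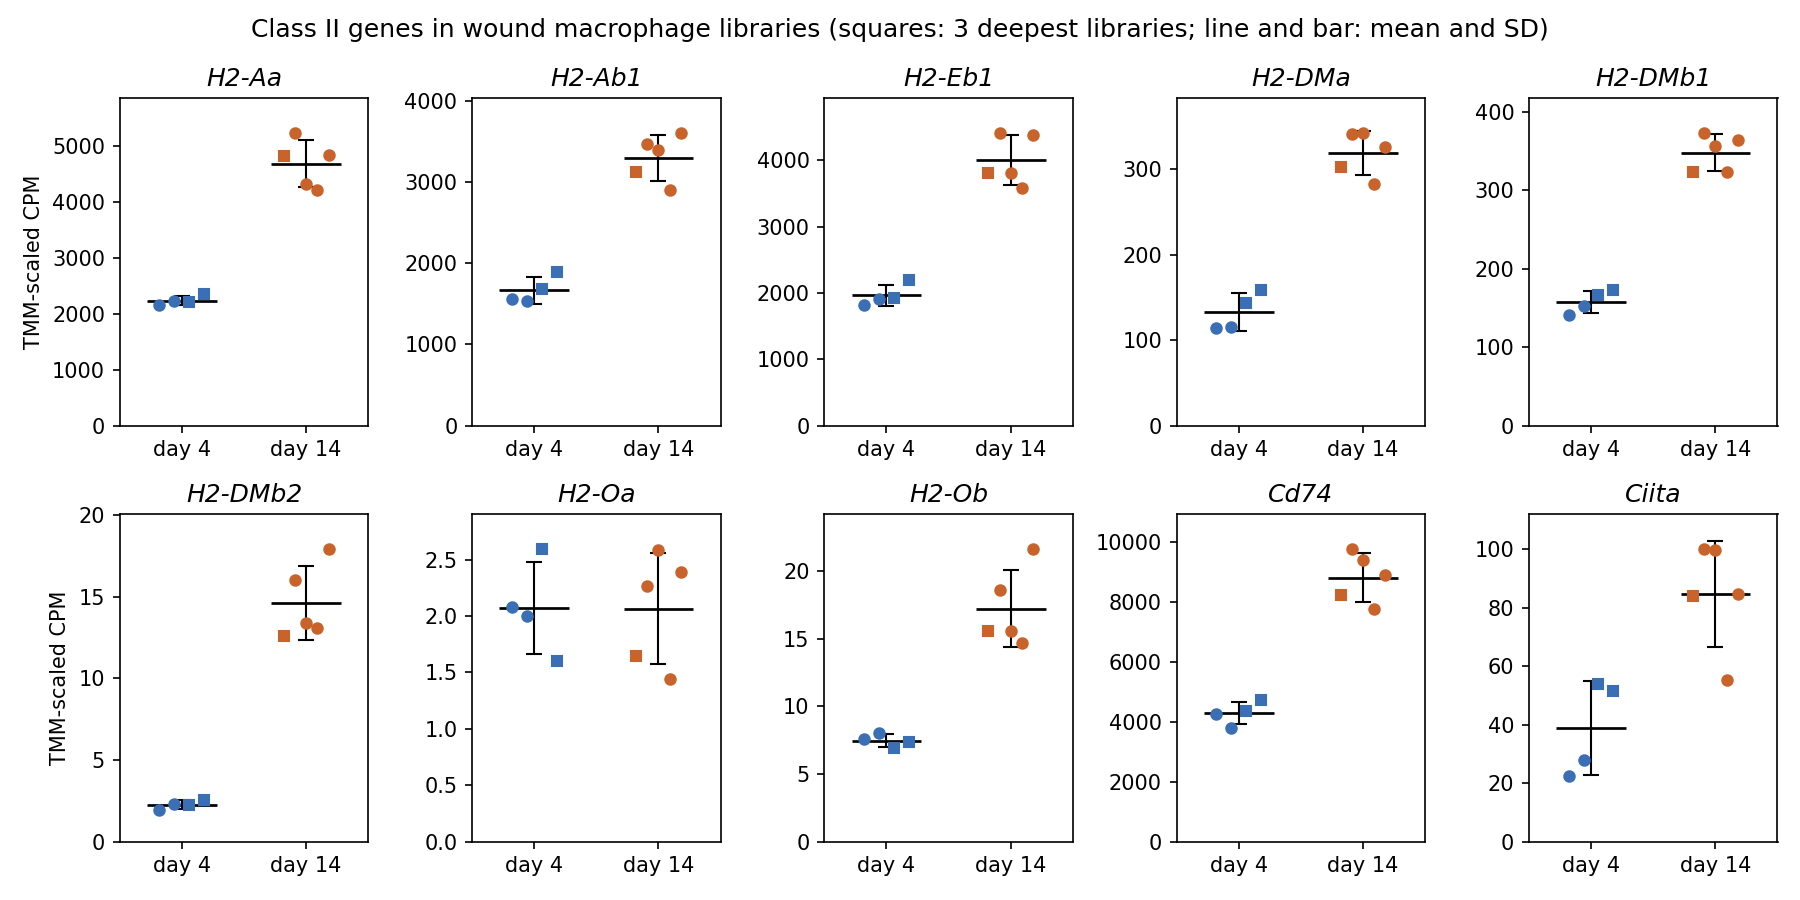
TMM-scaled CPM of the 10 class II genes (vertical axes from 0) in the 4 day 4 and 5 day 14 libraries, each point a library, squares the 3 deepest libraries, lines and bars the mean and SD. The days are apart in 9 panels and overlap for H2-Oa, and for Ciita the lowest day 14 library (55.2 CPM) is next to the highest day 4 library (53.9 CPM).

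The chains that present peptide rose about 2-fold with little spread. Their genes lie with those of DM and DO between 34092379 and 34316674 of chromosome 17 (GRCm38), the mouse H2 region. H2-Aa, the alpha chain of the I-A molecule, was at 2149, 2222, 2208 and 2348 CPM in the day 4 libraries and at 4814, 5229, 4325, 4212 and 4833 CPM in the day 14 libraries, in the order of the replicates. Its log2 fold change was 1.07 ± 0.09 (SE, adjusted p = 7.78e-06), and the days were separated by a gap far wider than the range within day 4. H2-Ab1, the beta chain of I-A, stood at 1563, 1530, 1685 and 1897 CPM at day 4 and at 3128, 3465, 3399, 2906 and 3604 CPM at day 14. The change was 1.98-fold (95% interval 1.70 to 2.30, adjusted p = 2.77e-05).

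H2-Eb1, the beta chain of the I-E molecule, was at 1819, 1910, 1925 and 2198 CPM at day 4 and at 3816, 4410, 3804, 3577 and 4387 CPM at day 14. It rose 2.04-fold (95% interval 1.75 to 2.37, adjusted p = 1.94e-05). Mice of the C57BL/6 background do not express its partner chain H2-Ea because of a defect in that gene, and so lack I-E on the surface. In these libraries the H2-Ea-ps row held from 0 to 0.089 CPM. H2-Eb2, a little-studied neighbouring beta chain gene, averaged 3.48 ± 1.18 CPM at day 4 and 4.93 ± 0.724 CPM at day 14, a difference that missed the threshold (adjusted p = 0.12).

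Cd74, the invariant chain, was the most abundant of the 10 at both times. It was at 4275, 3818, 4365 and 4739 CPM at day 4 and at 8243, 9763, 9420, 7762 and 8909 CPM at day 14. The log2 fold change was 1.04 ± 0.10 (adjusted p = 2.09e-05). Within each library, its level kept a narrow ratio to that of H2-Ab1, with 258 ± 11.3 Cd74 counts per 100 H2-Ab1 counts at day 4 and 267 ± 13.5 at day 14.

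The genes of the peptide editor DM rose as well, and the 2 beta chain genes did so unequally. H2-DMa, the alpha chain, was at 114, 115, 143 and 159 CPM at day 4 and at 302, 341, 342, 283 and 326 CPM at day 14 (log2 fold change 1.26 ± 0.12, adjusted p = 1.33e-05). At day 4 its higher values were those of replicates 3 and 4, which are also the deeper libraries of that day. H2-DMb1, the main beta chain gene, was at 141, 152, 166 and 173 CPM at day 4 and at 323, 373, 357, 324 and 364 CPM at day 14. It rose 2.20-fold (95% interval 1.92 to 2.52, adjusted p = 4.38e-06), with no overlap between days.

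H2-DMb2, a second beta chain gene beside H2-DMb1, had the largest change of the 10. It was at 1.95, 2.32, 2.23 and 2.59 CPM at day 4 and at 12.6, 16.0, 13.4, 13.1 and 17.9 CPM at day 14, a 6.36-fold rise (95% interval 5.06 to 7.99, adjusted p = 3.56e-07). The 2 genes share part of their sequence: 10.3% of the 100-base words of the H2-DMb2 transcripts (GENCODE M21) also occur in H2-DMb1, and 21.2% of its 50-base words do. Of the words of H2-DMb1, 13.7% and 27.2% occur in H2-DMb2. The deposited counts of both are not whole numbers in any library, and how shared reads were divided is not given in the sources used here, so the low H2-DMb2 level is uncertain. Per 100 counts of H2-DMb1, the day 4 libraries had 1.4, 1.54, 1.35 and 1.5 counts of H2-DMb2, and the day 14 libraries had 3.91, 4.29, 3.76, 4.05 and 4.92. The ratio was 2.89-fold higher at day 14, and no library of one day fell within the range of the other. The part of shared reads in this difference was not tested.

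The DO pair, known mainly from B cells and some dendritic cells, was low and its chains parted. H2-Ob, the beta chain, was at 7.61, 8.05, 6.92 and 7.35 CPM at day 4 and at 15.6, 18.6, 15.6, 14.7 and 21.6 CPM at day 14 (log2 fold change 1.20 ± 0.13, adjusted p = 3.77e-05). H2-Oa, the alpha chain, was at 2.08, 2.00, 2.59 and 1.60 CPM at day 4 and at 1.65, 2.27, 2.58, 1.44 and 2.39 CPM at day 14. Its libraries overlapped fully and the difference did not pass (adjusted p = 0.993), with a 95% interval from 0.698-fold to 1.42-fold. H2-Oa rested on 27 to 124 counts per library, but its interval leaves out a doubling. Per 100 counts of H2-DMa, the day 4 libraries had 1.84, 1.76, 1.82 and 1.01 counts of H2-Oa, and the day 14 libraries had 0.551, 0.671, 0.762, 0.519 and 0.741.

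**Figure D2:**
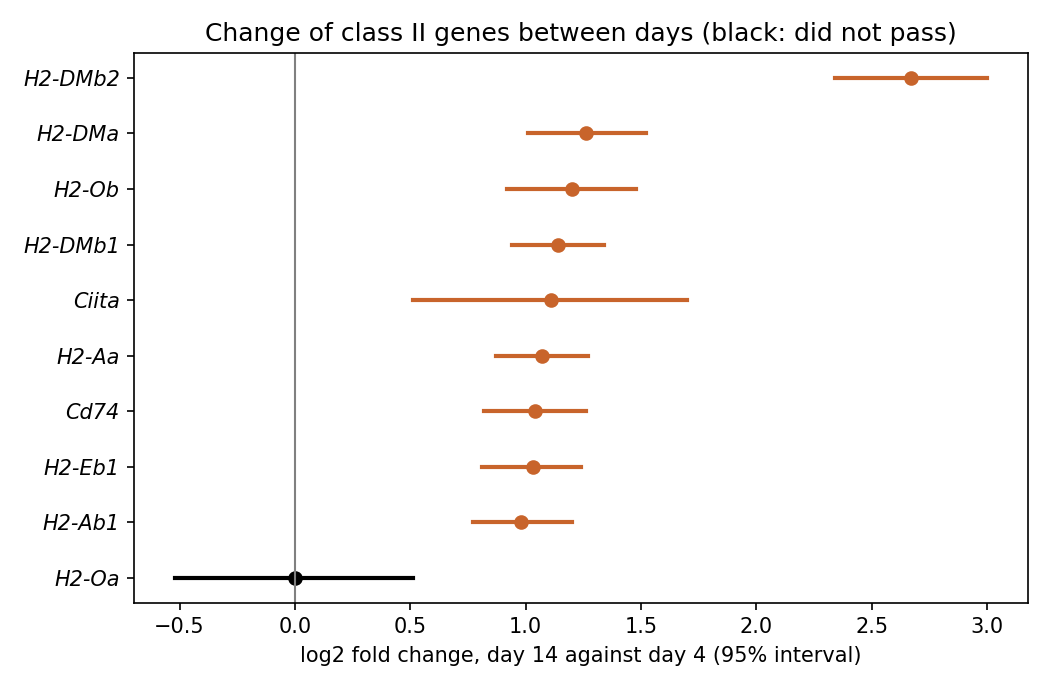
Log2 fold change of each class II gene between day 14 and day 4 (horizontal axis) with its 95% interval, ordered by size. H2-DMb2 stands at 2.67, 8 genes lie between 0.98 and 1.26, and the interval of H2-Oa runs from -0.52 to 0.51.

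Ciita rose on average as much as the chain genes, with far more spread. The gene lies at 10480014 to 10531064 of chromosome 16 (GRCm38, plus strand). Its level was at 22.6, 28, 53.9 and 51.6 CPM at day 4 and at 83.9, 99.9, 99.7, 55.2 and 84.7 CPM at day 14. Its coefficient of variation at day 4 was 41.0%, against 3.76% for H2-Aa and 8.81% for Cd74. The log2 fold change was 1.11 ± 0.27 (adjusted p = 0.0105).

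At day 4, Ciita split by depth: replicates 1 and 2, with 26479011 and 27381276 counts, were low, and replicates 3 and 4, with 50162700 and 57809914 counts, were just below day 14 replicate 4. Among the 6 shallower libraries alone (2 of day 4 and 4 of day 14), the log2 fold change of Ciita was 1.73 ± 0.26 (adjusted p = 0.00314). Among the 3 deeper libraries, Ciita was at 53.9 and 51.6 CPM at day 4 and at 83.9 CPM in the single day 14 library, which allows no test within that depth. In the 6 shallower libraries, H2-Aa, H2-Ab1, H2-Eb1 and Cd74 had log2 fold changes of 1.08 to 1.13, against 0.98 to 1.07 in all 9. H2-DMa was at 1.49 there against 1.26, H2-DMb1 at 1.26 against 1.14 and H2-DMb2 at 2.81 against 2.67. H2-Ob was at 1.16 against 1.20. The part of depth in these differences and in the spread of Ciita was not tested.

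The ratios between class II genes within a library do not depend on how libraries are scaled, and 8 were compared between days with an exact two-sided permutation test. With 4 and 5 libraries the smallest p that this test can give is 0.0159. H2-DMb2 to H2-DMb1 (log2 difference 1.53) and H2-Oa to H2-DMa (log2 difference -1.29) both reached it in the exact test, with no overlap between days, and both missed the threshold after adjustment over the 8 ratios (adjusted p = 0.0635). No other ratio reached the smallest p. The adjusted value depends on the number of libraries and ratios and on how many ratios reach a low p. The 6 other ratios overlapped between days. H2-Aa counts per 100 H2-Ab1 counts were 134 ± 9.15 at day 4 and 142 ± 11.3 at day 14, and H2-Eb1 counts were 118 ± 4.76 and 121 ± 5.65. H2-DMa counts per 100 counts of both DM beta genes were 82.3 ± 6.86 and 87.9 ± 3.36. H2-Ob counts per 100 H2-DMa counts were 5.80 ± 1.24 and 5.40 ± 0.757. Ciita counts per 100 H2-Ab1 counts ranged from 1.45 to 3.20 at day 4 and from 1.90 to 2.93 at day 14, so a moderate change in this ratio could not have been seen.

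**Figure D3:**
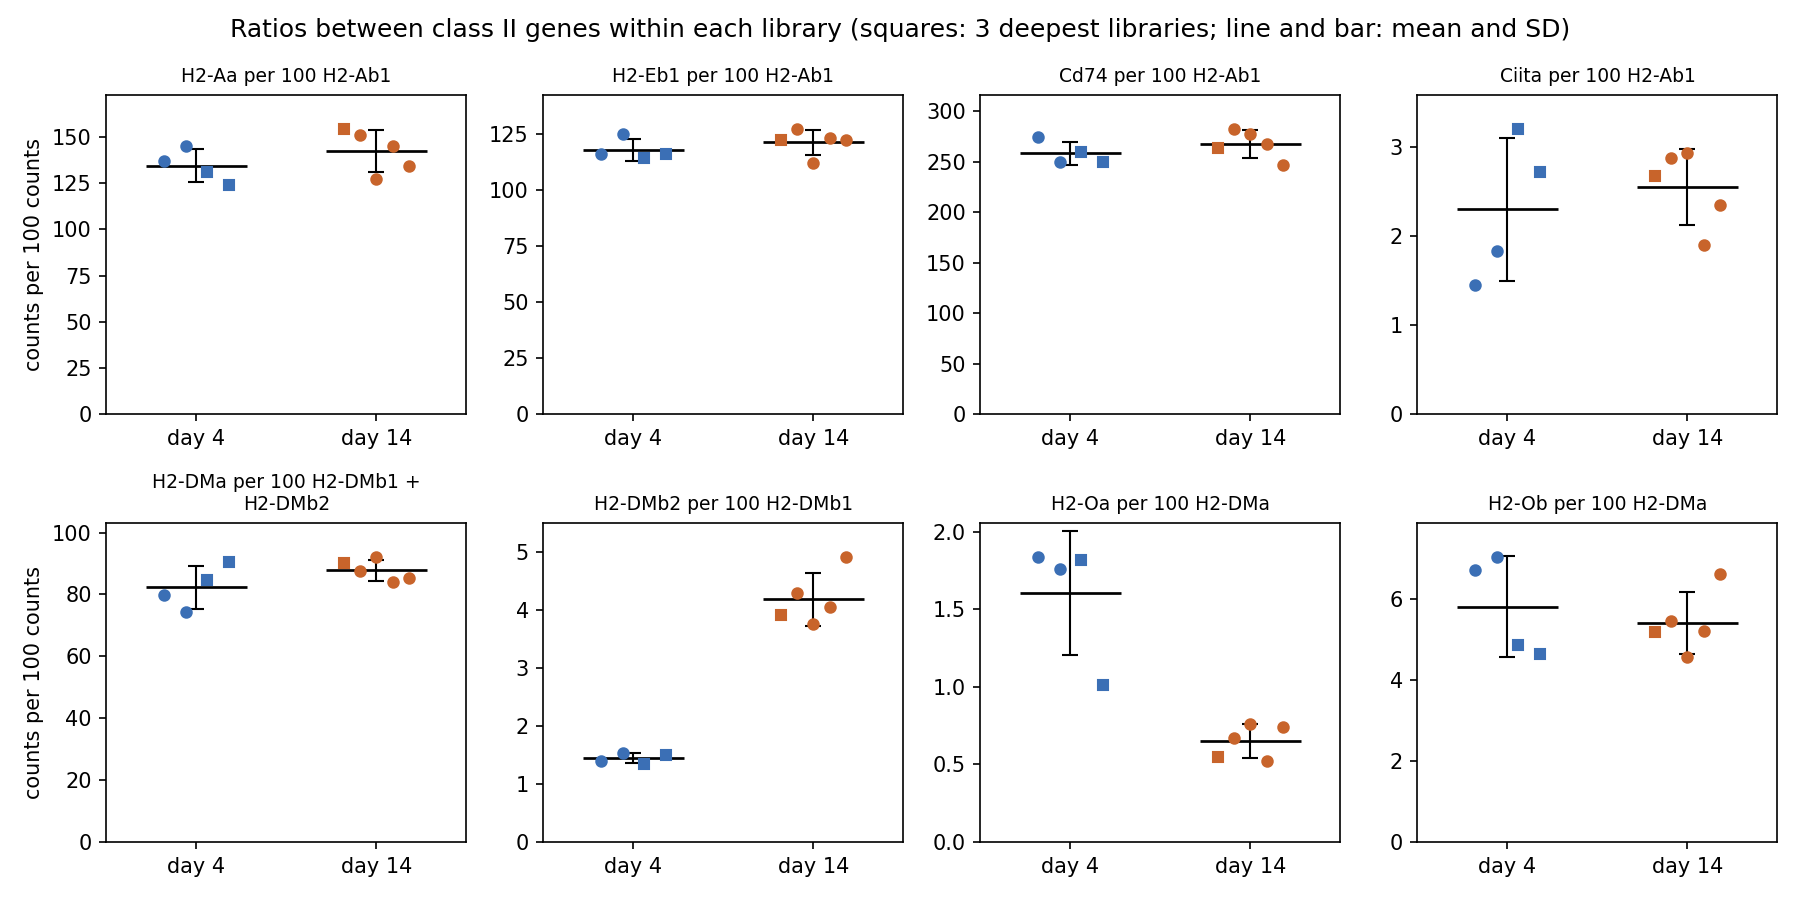
Counts of the first gene per 100 counts of the second (vertical axes from 0) within each library for the 8 ratios, with the mean and SD by day. H2-DMb2 per 100 H2-DMb1 is higher in all 5 day 14 libraries (3.76 to 4.92 against 1.35 to 1.54), H2-Oa per 100 H2-DMa is lower (0.519 to 0.762 against 1.01 to 1.84), and the other ratios overlap.

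Levels can be compared between genes only per length, here as CPM per kilobase of merged GENCODE M21 exons, which need not be the authors' gene models. At day 4 the order was Cd74 (2561 ± 226 CPM per kb), H2-Eb1 (1010 ± 84.2), H2-Ab1 (650 ± 64.7), H2-Aa (588 ± 22.1), H2-DMb1 (94.1 ± 8.66), H2-DMa (38.5 ± 6.43), Ciita (4.09 ± 1.68), H2-Oa (1.47 ± 0.288), H2-Ob (1.39 ± 0.0879) and H2-DMb2 (1.3 ± 0.152). The ranges of mean ± SD overlapped for the neighbours H2-Ab1 and H2-Aa, and among the last 3 genes. At day 14 the first 6 places were the same, from 5253 ± 490 for Cd74 to 92.4 ± 7.40 for H2-DMa, and the ranges of H2-Ab1 and H2-Aa again overlapped. Ciita (8.88 ± 1.91) and H2-DMb2 (8.35 ± 1.29 CPM per kb) then had overlapping ranges, followed by H2-Ob (3.20 ± 0.53) and H2-Oa (1.47 ± 0.35).

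Some exons are shared with neighbouring genes, and the library kit does not mark the strand. H2-DMa shares 360 bases with Brd2, a chromatin reader, which was at 429 ± 47.9 and 451 ± 11.9 CPM (adjusted p = 0.557). Ciita shares 329 bases with Dexi, at 5.95 ± 1.07 and 5.96 ± 1.18 CPM (adjusted p = 0.996). H2-Oa shares 321 bases with BC051537, which was under 0.1 CPM on average at both times (0.0243 and 0.0133 CPM). Brd2 and Dexi did not pass the test, and BC051537 was too low to be tested.

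The factors that hold CIITA on the promoters, and the acetyltransferase genes Ep300, Crebbp and Kat2b listed with them, changed little. Of these 10 genes tested, 3 rose and 0 fell, with a median log2 fold change of 0.04. Over all genes tested, 16.1% were called higher and 14.9% lower, or 30.9% in either direction. Rfx5, Rfxap and Rfxank, the RFX subunits, were at 11.6 ± 1.59, 11.7 ± 1.54 and 12.9 ± 2.83 CPM at day 4 and at 14.3 ± 1.31, 10.9 ± 1.09 and 12.7 ± 1.11 CPM at day 14, and none passed (adjusted p = 0.0667, 0.522 and 0.875). The 3 that rose were the NF-Y subunit gene Nfyb (1.23-fold), Creb1 (1.26-fold) and the acetyltransferase gene Kat2b (1.21-fold), with adjusted p-values of 0.0471, 0.027 and 0.0432. In 1 fit of all genes in 9 libraries, 1 of the 10 rose and 1 fell.

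The genes that act upstream of Ciita went both ways. Of 13 tested, 4 rose and 2 fell, with a median log2 fold change of 0.06. Of all genes tested, 16.1% were called higher and 14.9% lower. Irf4, a transcription factor of dendritic cells and IL-4-activated macrophages, rose from 49.1 ± 7.16 to 280 ± 38.5 CPM (5.70-fold, adjusted p = 2.19e-07). Irf1, which binds the interferon-inducible Ciita promoter, rose 1.82-fold, and the receptor-bound kinases Jak2 and Jak1 rose 1.70-fold and 1.22-fold. Among those that fell was Prdm1, a repressor of Ciita in plasma cells (1.36-fold lower, adjusted p = 0.017). The receptor genes Ifngr1 and Ifngr2 were at 318 ± 10.8 and 164 ± 15.9 CPM at day 4 and at 289 ± 8.41 and 137 ± 15.4 CPM at day 14 (adjusted p = 0.161 and 0.0612).

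Most of the listed lysosomal enzymes that cut antigen and the invariant chain were lower at day 14. Of 9 tested, 6 fell and 0 rose, with a median log2 fold change of -0.40, where 14.9% of all genes tested were called lower. Ctsl, cathepsin L, fell from 2092 ± 230 to 936 ± 86.4 CPM (2.24-fold lower, adjusted p = 8.9e-06). Lgmn, the asparagine-cutting protease legumain, went from 2402 ± 87.6 to 1485 ± 53.1 CPM. Ctss, cathepsin S, which makes the late cuts in the invariant chain, went from 3720 ± 354 to 2688 ± 218 CPM (adjusted p = 0.00341). Ctsd, Ctsb and the thiol reductase gene Ifi30 also fell, by 1.57-fold, 1.23-fold and 1.32-fold. Sppl2a, the membrane protease that clears the last stub of the invariant chain, was at 331 ± 26.1 and 339 ± 44.4 CPM (adjusted p = 0.829), and Ctsh and Ctsz did not pass either. Ctsf, cathepsin F, which also cuts the invariant chain in macrophages, is not on the list. It was named here after its values were seen, and is among the genes picked below for a profile near that of class II genes. Its rise from 9.77 ± 1.93 to 22.3 ± 1.73 CPM follows from that choice and is no test of how such enzymes changed.

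Among genes of class II turnover and of CD74 partners, 1 of 6 rose and 2 fell, beside 16.1% called higher and 14.9% called lower over all genes tested. Cd83, a surface protein that protects class II molecules from the ubiquitin ligase MARCH1, rose from 530 ± 69.4 to 1476 ± 170 CPM (2.78-fold, adjusted p = 4.51e-06). March1 itself was at 105 ± 30.2 and 132 ± 27.5 CPM (adjusted p = 0.229). Mif, a cytokine that binds CD74, fell from 38.2 ± 7.18 to 11.6 ± 1.86 CPM, and its relative Ddt fell 1.54-fold. Of 6 genes of costimulation and class II receptors, 5 rose and 0 fell, beside the same background. They were Cd80, Cd40, Icam1, Cd4 and Lag3, from 1.33-fold for Cd40 to 1.68-fold for Cd4. Cd4 encodes the coreceptor for class II, and the T cell genes Cd3d, Cd3e and Cd3g, measured in 8 libraries, were under 0.1 CPM on average at both times.

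**Figure D4:**
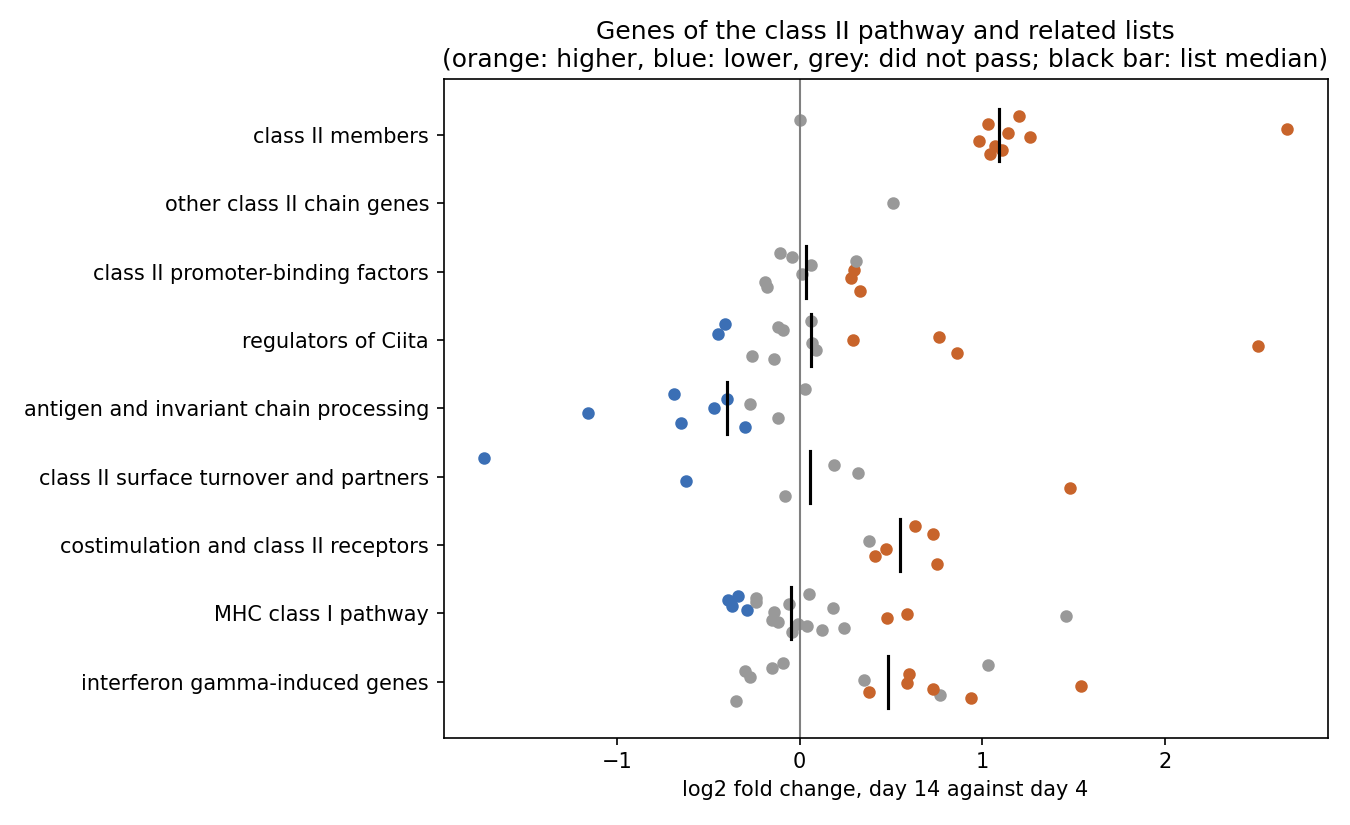
Log2 fold change between day 14 and day 4 (horizontal axis) of each tested gene of the class II pathway and related lists, 1 point per gene, colored by the call, with black bars at the list medians. The class II genes lie to the right with a median of 1.09, the processing enzymes to the left with a median of -0.40, and the class I pathway around -0.05.

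The class I pathway, which shows peptides to CD8 T cells, was looked at beside it. Of 20 genes tested, 2 rose and 4 fell, with a median log2 fold change of -0.05, a share near the 30.9% called in either direction over all genes tested. Without day 14 replicate 5, 2 rose and 2 fell. B2m, the light chain, was at 3269 ± 273 and 3171 ± 461 CPM (adjusted p = 0.805). H2-Q4, a nonclassical class I gene, rose 1.4-fold, H2-Q7 rose 1.51-fold and Tapbp, the loading protein tapasin, fell 1.27-fold. The copies of the H2-Q family share sequence, so their counts are uncertain. Of 14 interferon gamma-induced genes tested, 6 rose and 0 fell, where 16.1% of all genes tested were called higher. Gbp3, a guanylate-binding protein, rose from 43.2 ± 5.97 to 71.5 ± 8.58 CPM, Gbp4 rose 2.90-fold and the chemokine gene Cxcl10 rose 1.92-fold. The most abundant of that list, Cd274, was at 211 ± 82.0 and 165 ± 31.1 CPM (adjusted p = 0.229). Whether the class II list differed from these lists as a whole was not tested.

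Other cells that carry class II were looked for in the same libraries. Of all genes tested, 16.1% were called higher and 14.9% lower, and the marker counts that follow stand beside these shares. Of 11 dendritic cell markers tested, 8 rose and 0 fell, and the summed level of the 10 measured in all libraries was 283 to 349 CPM at day 4 and 536 to 628 CPM at day 14. Itgax (CD11c) went from 102 ± 10.5 to 198 ± 12.8 CPM, Cd209a from 55.1 ± 6.85 to 146 ± 21.2 CPM and Zbtb46 from 3.98 ± 0.75 to 10.8 ± 1.91 CPM. Flt3, the growth factor receptor of dendritic cell precursors, was at 16.4 ± 3.82 and 17.5 ± 4.43 CPM, and no marker of this list was at 0. Of 4 plasmacytoid dendritic cell markers, 2 could be tested. Siglech rose from 0.647 ± 0.284 to 2.97 ± 1.04 CPM, Ccr9 was at 0.679 ± 0.139 and 0.602 ± 0.321 CPM (8 libraries, adjusted p = 0.729), and the other two stayed under 1 CPM in every library. Of the Langerhans cell markers, Cd207 rose from 3.32 ± 0.705 to 8.28 ± 2.34 CPM and Epcam rose from 0.401 ± 0.285 to 1.2 ± 0.507 CPM.

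B cell markers summed to 5.75 to 8.13 CPM at day 4 and to 10.8 to 13.5 CPM at day 14. Of the 8, 6 were under 1 CPM in every library, Ms4a1 and Pax5 among them, and most of the sum was Cd79b, which rose 1.88-fold. Fcrla was at 0.614 ± 0.404 and 0.72 ± 0.318 CPM (adjusted p = 0.762). The 4 tested of 5 eosinophil markers rose, among them Ccr3 (8.74 ± 1.42 to 32.5 ± 10.5 CPM) and Prg2 (4.72 ± 1.25 to 13.8 ± 2.43 CPM), while Epx was under 0.1 CPM. Of 8 fibroblast markers, 5 fell and 0 rose. Those that fell included Col1a1 (3304 ± 900 to 1211 ± 452 CPM) and Col1a2 (3100 ± 1116 to 1462 ± 373 CPM). The 3 others did not pass: Dcn (394 ± 155 and 305 ± 37.8 CPM), Lum (130 ± 56.9 and 127 ± 18.1 CPM) and Postn (596 ± 248 and 561 ± 74.2 CPM). Of 10 macrophage and sort markers, 2 rose (Ptprc, which encodes CD45, and Emr1) and 4 fell. The latter were Itgam, which encodes CD11b (1753 to 1291 CPM), Cd68, Mertk and Fcgr1. Fcgr1 had the largest change of this list (310 ± 19.8 to 145 ± 11.9 CPM, 2.14-fold lower). Cd14 was at 2689 ± 774 and 2421 ± 411 CPM (adjusted p = 0.535). Of the 5 T cell markers 4 were under 1 CPM in every library, and Cd2, which other blood cells also express, rose from 4.84 ± 1.51 to 37.6 ± 5.87 CPM, with Lck at 0.169 ± 0.0968 and 0.147 ± 0.162 CPM. None of 4 neutrophil markers tested passed, with S100a9 at 481 ± 327 and 317 ± 338 CPM and S100a8 at 204 ± 132 and 131 ± 136 CPM. The part of dendritic and other cells in the class II change was not tested.

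The 8 genes whose profile over the 9 libraries lay nearest to the mean profile of 9 class II genes were found among 8844 genes with a mean of at least 5 CPM over the libraries. H2-Oa fell short of that mean and was left out, and H2-DMb2, below 5 CPM in every day 4 library, met it through its day 14 level. With a log2 fold change of 2.67, against 0.98 to 1.26 for the others, H2-DMb2 raised the change of the mean profile. The genes nearest to a profile without H2-DMb2 were not sought. Likeness was the root mean square difference of log2(CPM + 0.5) after centring each gene. In this order they were Ccnd1 (cyclin D1), Ramp1 (a receptor-associated protein), Capn5 (a calpain), Trerf1 (a transcription factor), Cd300lg (a surface receptor), Map4k1 (a kinase of blood cells), Ctsf (cathepsin F) and the dendritic cell marker Cd209a, with differences from 0.0898 to 0.126. Ccnd1 went from 29.8 ± 3.51 to 73.0 ± 3.85 CPM and Ramp1 from 5.96 ± 0.525 to 14.4 ± 1.26 CPM. Of the class II genes themselves, H2-DMa was nearest to the mean profile at 0.0694, H2-Aa was at 0.131, Ciita at 0.322 and H2-DMb2 farthest at 0.597. Each of these is part of that mean, which draws its distance down, so these distances cannot be set against those of the 8 genes.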

How the data were processed

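Estimated counts per gene, not normalized, were deposited for 18303 gene symbols in 9 libraries. A mean of 15.3% of the values per library are not whole numbers, and they were rounded. The submitters' processing notes name the build mm10 and the tools HISAT2 2.1.0, Partek 6.6, CASAVA 1.8, DESeq2 and SAMtools 1.4, with no role or order. The counting tool and annotation are not given in the sources used here. Per the labels' protocols, libraries were made with the TruSeq RNA kit v2. A second table of normalized values was not used.

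Genes before the break of day 14 replicate 5 were fitted in 9 libraries and the 1504 genes beyond it in 8, with p-values adjusted together. The fits used edgeR 4.0.16 in R 4.3.3 (TMM, filterByExpr, glmQLFit with robust dispersion, glmQLFTest, two-sided) with Benjamini-Hochberg adjustment and a threshold of 0.05. All 10 class II genes passed the low-count filter. Of 13353 genes tested, 2144 were higher and 1988 lower at day 14. Ratios used counts plus 0.5. The fit was checked on simulated data.

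The members, lists and break were chosen with earlier results of these data known. Named genes are the 10 members, genes of the pathway lists, the 3 lowest p-values and the most abundant gene of the class I and interferon lists, the 2 most abundant markers of each cell type, and the 8 nearest profiles. Overlapping neighbours, Ctsf as an enzyme and all other markers were named after their values were seen. Alternatives included RLE, upper-quartile and total-count scaling, DESeq2 1.42.0, limma-voom (limma 3.58.1), other filters and leaving out each library. Single values of some list genes are not reported here.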

Additional observations from a re-analysis of the deposited data

Results flagged for a closer look

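Of 36 sets of values (each class II gene and each ratio, by day) searched for a library far from the others, 1 was found, and chance gives about 1 in 20. In day 4 replicate 4, the ratio of H2-Oa to H2-DMa was 0.0101, with the 3 other day 4 libraries between 0.0176 and 0.0184. This library held 89 counts of H2-Oa. Without it the log2 difference of the ratio between days was -1.49, against -1.29 with it.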

How the results depend on the processing

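The count of 9 class II genes called higher was the same in all 21 alternatives, and each gene kept its side of the threshold in each alternative that tested it (H2-Oa was not tested with a filter of 5 CPM in 4 libraries). The log2 fold change of Ciita ran from 0.92 without day 4 replicate 1 to 1.73 in the 6 shallower libraries, and was 1.48 with library size as a covariate (adjusted p from 7.38e-05 to 0.0323 over its alternatives). That of H2-Oa ran from -0.13 to 0.11. With each library left out in turn, between 1600 and 2434 genes were called higher and between 1441 and 2381 lower. In the 6 shallower libraries 1030 were higher and 1045 lower, with fewer samples. In 1 fit of all genes in 9 libraries, 1 gene of the list of promoter factors and acetyltransferases rose and 1 fell, and 2 class I genes fell. With upper-quartile scaling, 2 turnover genes rose and 1 class I gene fell. Without day 14 replicate 5, chosen for the lists after seeing the data, 2 class I genes fell. Leaving out each library moved the log2 difference of H2-DMb2 to H2-DMb1 between 1.47 and 1.57, of H2-Oa to H2-DMa between -1.49 and -1.21 and of Ciita to H2-Ab1 between 0.00 and 0.38. No paired analysis was possible because the labels give no replicate numbers that the days share.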
